A study of Mus musculus with 8 samples.

Results

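This report covers 35 genes of sterol and fatty acid synthesis in cultured mouse undifferentiated spermatogonia (Aundiff) after treatment with AGX51, an inhibitor of all ID proteins. They were taken by gene symbol from a table of 17167 genes. Of the 35, 21 make, sense or carry sterols and 14 make, lengthen, desaturate or activate fatty acids. All 35 had enough counts to be tested, among 14428 tested genes. The cells were wild type, enriched with an antibody to CD9 from adult testis and grown on mitotically inactivated fibroblast feeders. Feeders were then depleted, and the spermatogonia were plated on Geltrex, a basement membrane matrix. The first group, AGX51, received the inhibitor at 80 µM for 20 h, and the second, Vehicle, received DMSO for 20 h. Each of 4 cultures, every one started from a single mouse, gave 1 AGX51 library and 1 Vehicle library, so that 8 libraries were compared. Sample labels give the strain as CBA/J, while the supplemental procedures give C57BL/6J. The labels also give the dose in mM, and the µM value of the study is used here.

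Cholesterol is built from acetyl-CoA through mevalonate, farnesyl pyrophosphate and squalene to lanosterol, which is then trimmed and reduced to cholesterol. The genes of this route are controlled together by SREBP-2, a transcription factor held in the endoplasmic reticulum by SCAP and INSIG proteins while sterols are plentiful and released when they run low. SREBP-1 acts in the same way on many fatty acid genes, where acetyl-CoA is carboxylated to malonyl-CoA, assembled into palmitate, and then lengthened and desaturated. ID proteins bind E-proteins, which are basic helix-loop-helix factors, and keep them off DNA, and AGX51 disrupts that binding.

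Priming was from the poly(A) tail, so a level is given in CPM, the count scaled to the library's total, and is compared between groups but not between genes. Library totals were 4303318 to 8441399 counts in AGX51 and 8330176 to 9586105 counts in Vehicle, with the AGX51 library the smaller in every culture (p = 0.0571 by a two-sided exact permutation test, in which 4 against 4 libraries cannot go below 0.0286). Differences were tested with edgeR's quasi-likelihood test over all tested genes, and a gene is called higher or lower at a Benjamini-Hochberg adjusted p under 0.05 with a fold change above 1.5, which is 0.585 on the log2 scale. By this rule 1213 genes, 8.41% of those tested, were higher and 1422, 9.86%, were lower. In these bulk libraries, fewer cells of one type and less RNA per cell cannot be told apart. Germ cell markers were present, led by *Dazl*, *Tex101* and *Ddx4*, and the 12 listed summed to 1056 to 1529 CPM in AGX51 and 1763 to 2231 CPM in Vehicle. Of the 11 tested, 1 was higher and 3 were lower, *Dazl* among them (log2 fold change -1.22). The 22 fibroblast markers, led by *Sparc*, *Vim* and *Col1a2*, summed to 4091 to 7837 CPM in AGX51 and 2820 to 4744 CPM in Vehicle. Of these, 8 were called higher, *Sparc* among them (log2 fold change 0.83), and 0 lower (0 also at an unadjusted p under 0.05 by edgeR). Their mean log2 CPM was 6.39 ± 0.44 in AGX51 and 5.85 ± 0.30 in Vehicle (SD, n = 4 each; exact permutation test, two-sided, p = 0.0857), higher with AGX51 in 4 of 4 cultures. AGX51 culture 4 held the highest fibroblast sum and the lowest germ cell sum of all 8 libraries.

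Sterol synthesis genes were higher after AGX51 at many steps of the pathway. Of the 21 sterol genes, 10 were called higher and 0 lower, where 8.41% of all tested genes were higher and 9.86% lower. No sterol gene was lower at an unadjusted p under 0.05 by edgeR, nor called lower by DESeq2 or limma-voom. Without the fold threshold, 16 of the 21 passed the adjusted p as higher, as did 15.2% of tested genes. All 21 fitted log2 fold changes were above 0, and their median was 0.56, against 0.00063 over all tested genes. The 10 called genes all lay above 0.87, the 95th percentile of the log2 fold changes of tested genes. CPM ranges of the groups were apart, with AGX51 above, for 11 of the 21, as for 10.6% of tested genes. AGX51 was above Vehicle in each of the 4 cultures for 19 of the 21, as for 27.1% of tested genes. The median within-culture difference was 0.80, 0.63, 0.63 and 0.70 on the log2 CPM scale in cultures 1 to 4. Of the 14 fatty acid genes, 6 were called higher and 1 lower, where 8.41% and 9.86% of tested genes were. By the adjusted p alone 8 were higher and 2 lower, where 15.2% and 15.4% of tested genes were. The lower counts lie near the shares of all tested genes. The median log2 fold change of the 14 was 0.43. Of these 14, CPM ranges were apart with AGX51 above for 7 and with AGX51 below for 1, and 17.9% of tested genes had ranges apart with AGX51 below.

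**Figure D1:**
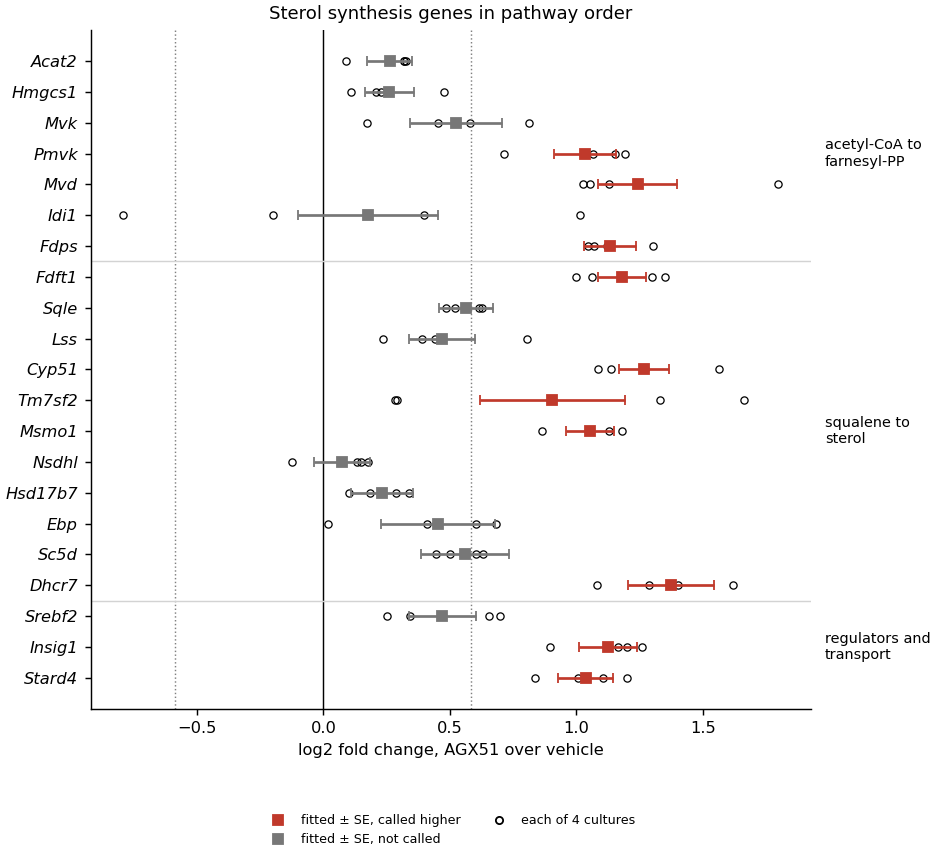
Log2 fold change of AGX51 over Vehicle for the 21 sterol genes in pathway order, with squares and bars for the edgeR estimate ± SE and open circles for the difference within each of the 4 cultures. Dotted lines mark a fold change of 1.5 in either direction, and red squares mark the 10 genes called higher, from *Tm7sf2* at 0.90 to *Dhcr7* at 1.37, while all 21 estimates lie right of 0.

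Since SREBP-2 acts at promoters together with the factors NF-Y and Sp1, the promoters of the 35 genes, whether called or not, were searched for the letters those factors bind. RefSeq promoters (GRCm38.p6; 250 bases before to 50 after each gene's start) were matched for 28 of the 35 genes, 17 sterol and 11 fatty acid. *Sqle*, *Fdps*, *Fdft1*, *Stard4*, *Scd1*, *Scd2* and *Fads1* were not matched. A gene was counted as holding a motif if any of its promoters in the RefSeq set did. The share of all promoters instead counts single promoters. On either strand, CCAAT, the NF-Y core, was held by 16 of 17 sterol and 8 of 11 fatty acid genes. It was in 37.4% of all 32851 promoters and 43.1% of the 10517 tested genes with a promoter. GGGCGG, the Sp1 core, was held by 16 of 17 sterol and 7 of 11 fatty acid genes. It was in 35.7% of all promoters and 68.8% of those tested genes. Of the 11 matched genes called higher, 10 held the NF-Y core and 10 the Sp1 core, and of the 17 not called higher, 14 held the NF-Y core and 13 the Sp1 core. The SREBP element TCACNCCAC was found in 1 of 28 genes, *Hmgcs1*, and in 1.24% of all promoters and 1.36% of tested genes. The E-box CACGTG, to which SREBPs and other helix-loop-helix factors can bind, was held by 4 sterol genes (*Hsd17b7*, *Sc5d*, *Dhcr7* and *Insig1*) and by *Elovl5*. That is 17.9% of the 28 genes, against 7.15% of all promoters and 12.0% of tested genes. Of the E-boxes that E-proteins bind, CAGCTG was in 4 of 28 genes against 16.3% of all promoters and 17.7% of tested genes. CAGGTG was in 7 of 28 against 20.2% and 21.1%. CANNTG, which also takes in the 3 E-boxes above, was in 20 of 28 against 72.3% and 67.3%. TGATGNAA, bound by ATF4 dimers, was found in 1 of 28 genes, *Idi1*, against 3.97% of all promoters and 2.70% of tested genes. These matches describe letters only, and promoters outside the RefSeq set were not searched.

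The 6 stretches that follow come 4 times from sterol genes called higher (*Dhcr7*, *Cyp51*, *Mvd*, *Insig1*), once from *Hmgcs1*, which holds the SREBP element but was not called, and once from *Elovl6*, the only one of the 35 called lower. Each runs from 250 to 51 bases before the RefSeq start of the gene's first listed promoter. Capitals mark the SREBP element TCACNCCAC, the E-box CACGTG, the NF-Y core CCAAT or the Sp1 core GGGCGG on either strand.
Dhcr7 (chr7:143822917-143823116, + strand): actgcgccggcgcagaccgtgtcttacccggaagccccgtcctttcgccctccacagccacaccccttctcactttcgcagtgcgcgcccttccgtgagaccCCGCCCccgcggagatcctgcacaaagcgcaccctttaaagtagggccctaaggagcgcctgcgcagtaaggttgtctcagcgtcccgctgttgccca
Cyp51 (chr5:4104748-4104947, - strand): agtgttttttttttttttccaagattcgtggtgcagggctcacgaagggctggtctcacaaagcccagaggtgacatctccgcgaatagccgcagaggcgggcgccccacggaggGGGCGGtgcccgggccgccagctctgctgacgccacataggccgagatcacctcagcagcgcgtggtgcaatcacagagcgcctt
Mvd (chr8:122443473-122443672, - strand): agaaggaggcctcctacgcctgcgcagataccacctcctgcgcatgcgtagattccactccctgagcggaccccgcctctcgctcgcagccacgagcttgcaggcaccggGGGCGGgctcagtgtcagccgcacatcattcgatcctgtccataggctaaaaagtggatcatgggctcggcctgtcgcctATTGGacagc
Insig1 (chr5:28071162-28071361, + strand): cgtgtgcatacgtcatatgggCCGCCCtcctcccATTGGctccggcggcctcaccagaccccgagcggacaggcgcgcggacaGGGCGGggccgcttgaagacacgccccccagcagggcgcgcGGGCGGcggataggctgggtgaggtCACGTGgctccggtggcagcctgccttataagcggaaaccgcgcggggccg
Hmgcs1 (chr13:119690101-119690300, + strand): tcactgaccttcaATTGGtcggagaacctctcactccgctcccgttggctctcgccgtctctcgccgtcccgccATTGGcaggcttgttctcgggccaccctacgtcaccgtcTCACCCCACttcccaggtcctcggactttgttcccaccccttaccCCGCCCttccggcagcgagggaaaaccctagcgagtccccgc
Elovl6 (chr3:129532136-129532335, + strand): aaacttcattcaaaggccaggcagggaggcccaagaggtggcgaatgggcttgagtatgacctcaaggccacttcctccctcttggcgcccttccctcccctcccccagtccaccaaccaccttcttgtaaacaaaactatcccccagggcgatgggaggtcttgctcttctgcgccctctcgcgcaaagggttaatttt
In these stretches *Insig1* holds 3 Sp1 cores, 1 NF-Y core and the E-box CACGTG, which lies 101 bases before its start, and *Hmgcs1* holds its SREBP element 137 bases before its start between 2 NF-Y cores and 1 Sp1 core. *Dhcr7* and *Cyp51* hold an Sp1 core 148 and 135 bases before the start, *Mvd* an Sp1 core 140 and an NF-Y core 60 bases before it, and *Elovl6* none of the 4 motifs. Other motifs counted above for *Dhcr7* and *Cyp51* lie outside the stretches shown, nearer to the start or in another promoter of the gene.

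In the first steps of the route, which make and phosphorylate mevalonate, none of the 3 members passed the call rule. *Acat2*, the thiolase that joins acetyl-CoA units, was at 138–175 CPM in AGX51 and 128–142 CPM in Vehicle, with a log2 fold change of 0.26 ± 0.09 (SE; edgeR adjusted p = 0.0398), under the fold threshold. *Hmgcs1*, which makes HMG-CoA, was at 171, 174, 189 and 157 CPM in AGX51 cultures 1 to 4, against 146, 159, 157 and 144 CPM in Vehicle. It was higher with AGX51 in each culture, but the groups overlapped and the log2 fold change was 0.26 ± 0.10 (edgeR adjusted p = 0.0509). *Mvk*, mevalonate kinase, was at 19.4, 35.3, 18.7 and 26.4 CPM in AGX51 and 14.02, 19.8, 19.2 and 19.1 CPM in Vehicle. AGX51 culture 2 stood highest, AGX51 cultures 1 and 3 lay inside the Vehicle range, and the log2 fold change of 0.52 ± 0.18 was not called (edgeR adjusted p = 0.0407). Without AGX51 culture 1 or 3 it was called, at 0.65 and 0.62.

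From phosphomevalonate to squalene 4 of 5 genes rose by 2.05- to 2.37-fold, and *Idi1* did not pass the test. *Pmvk*, phosphomevalonate kinase (chromosome 3, 89454541 to 89469013), was at 46.7, 59.7, 46.5 and 40.3 CPM in AGX51 cultures 1 to 4, against 22.0, 26.4, 23.6 and 26.5 CPM in Vehicle. The groups were well apart, for a log2 fold change of 1.03 ± 0.12 (edgeR adjusted p = 4.59e-05). *Mvd*, the decarboxylase that makes isopentenyl pyrophosphate, was at 58.2, 61.6, 41.4 and 39.8 CPM in AGX51 and 16.5, 27.7, 23.1 and 21.1 CPM in Vehicle. Its AGX51 libraries formed a higher pair, cultures 1 and 2, and a lower pair, cultures 3 and 4, both above every Vehicle library, for a log2 fold change of 1.24 ± 0.16 (edgeR adjusted p = 6.50e-05). *Idi1*, the isomerase that follows, had few reads, at 5.20, 2.79, 6.05 and 4.86 CPM in AGX51 and 5.92, 4.80, 3.45 and 3.96 CPM in Vehicle. It was higher with AGX51 in cultures 3 and 4 and lower in cultures 1 and 2, and its log2 fold change was 0.18 ± 0.28 (edgeR adjusted p = 0.663). *Fdps*, which joins isoprene units into farnesyl pyrophosphate (chromosome 3, 89093588 to 89101959), was at 65.9, 74.8, 61.0 and 62.0 CPM in AGX51, against 31.6, 33.9, 33.7 and 27.1 CPM in Vehicle. The lowest AGX51 library was well above the highest Vehicle library, for a log2 fold change of 1.13 ± 0.10 (edgeR adjusted p = 4.45e-06). *Fdft1* (chromosome 14, 63145150 to 63179578) encodes squalene synthase, the first enzyme committed to sterols. It was at 149, 162, 150.1 and 123 CPM in AGX51 and 70.9, 64.8, 68.4 and 66.7 CPM in Vehicle. The Vehicle libraries lay close together and AGX51 culture 4 was the lowest of the treated libraries, for a log2 fold change of 1.18 ± 0.09 (edgeR adjusted p = 1.95e-06).

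The steps that make and demethylate lanosterol differed from one another in size. *Sqle*, squalene epoxidase, a second control point of the route, was at 153, 179, 133 and 117 CPM in AGX51 and 99.2, 114, 108 and 90.0 CPM in Vehicle. The groups did not overlap, and the log2 fold change of 0.56 ± 0.11 fell just short of the fold threshold (edgeR adjusted p = 0.00125). It was called at 0.64 without AGX51 culture 4, at 0.63 without Vehicle culture 2 and at 0.59 without Vehicle culture 3. *Lss*, which closes the sterol rings, had overlapping groups and a log2 fold change of 0.47 ± 0.13 (edgeR adjusted p = 0.0147), also not called. *Cyp51*, lanosterol demethylase (chromosome 5, 4081145 to 4104746), was at 266, 241, 253 and 217 CPM in AGX51, against 109, 112, 99.4 and 107 CPM in Vehicle. Every AGX51 library was far above every Vehicle library, for a log2 fold change of 1.27 ± 0.10 (edgeR adjusted p = 1.81e-06), the smallest adjusted p among the 35. *Msmo1*, which oxidises the methyl groups that remain (chromosome 8, 64718139 to 64733792), was at 328, 328, 323 and 296 CPM in AGX51 and 148, 156, 165 and 176 CPM in Vehicle. Its 3 highest AGX51 libraries were nearly equal, with culture 4 below them and all Vehicle libraries far lower, for a log2 fold change of 1.06 ± 0.10 (edgeR adjusted p = 4.57e-06). *Tm7sf2*, a sterol reductase, had few reads, at 5.04, 3.72, 3.76 and 5.92 CPM in AGX51 and 1.53, 3.00, 3.56 and 2.50 CPM in Vehicle. Its lowest AGX51 library was barely above its highest Vehicle library, and the difference was large in cultures 1 and 4 (1.66 and 1.33 on the log2 scale) and small in cultures 2 and 3 (0.28 and 0.29). It was called higher at 0.90 ± 0.29 (edgeR adjusted p = 0.0275), a call that 8 of 22 other settings did not give, among them equal depth (0.91, edgeR adjusted p = 0.0599) and the omission of AGX51 culture 1 (0.90), AGX51 culture 4 (0.73), Vehicle culture 1 (0.72) or Vehicle culture 4 (0.89).

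*Nsdhl* and *Hsd17b7*, which work with *Msmo1* on the same methyl groups, were not called. *Nsdhl* was at 48.2–53.7 CPM in AGX51 and 47.0–61.0 CPM in Vehicle, for a log2 fold change of 0.08 ± 0.11, and *Hsd17b7* was at 50.8–66.0 CPM in AGX51 and 42.4–56.4 CPM in Vehicle, for 0.23 ± 0.12 (edgeR adjusted p = 0.645 and 0.168). The groups overlapped for both. *Ebp*, the sterol isomerase, was at 22.1, 15.8, 20.97 and 29.5 CPM in AGX51 and 13.6, 15.4, 16.0 and 24.0 CPM in Vehicle. Culture 4 was the highest library in both groups, and the log2 fold change of 0.45 ± 0.23 did not pass the test (edgeR adjusted p = 0.144); with culture as a block its adjusted p was 0.00430, with the fold still under the threshold. It was called without AGX51 culture 2, at 0.61, and without Vehicle culture 4, at 0.67. *Sc5d*, the sterol desaturase, was at 130.5, 109.7, 136 and 171 CPM in AGX51 and 91.4, 79.4, 102 and 122 CPM in Vehicle. Both groups were spread by culture in the same order, and within each culture AGX51 was higher by 0.45 to 0.63 on the log2 scale. Its log2 fold change was 0.56 ± 0.17 (edgeR adjusted p = 0.0291, and 1.33e-07 with culture as a block), under the fold threshold in both fits, and it was called without AGX51 culture 1 (0.62), AGX51 culture 2 (0.69) or Vehicle culture 4 (0.69). *Dhcr7*, the reductase of the last step to cholesterol (chromosome 7, 143823145 to 143848410), was at 93.6, 135, 81.8 and 61.8 CPM in AGX51 cultures 1 to 4, against 35.1, 43.3, 38.9 and 31.5 CPM in Vehicle. Culture 2 was the highest and culture 4 the lowest in both groups, and the groups did not overlap. Its log2 fold change of 1.37 ± 0.17 was the largest of the 35 (edgeR adjusted p = 0.000109).

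**Figure D2:**
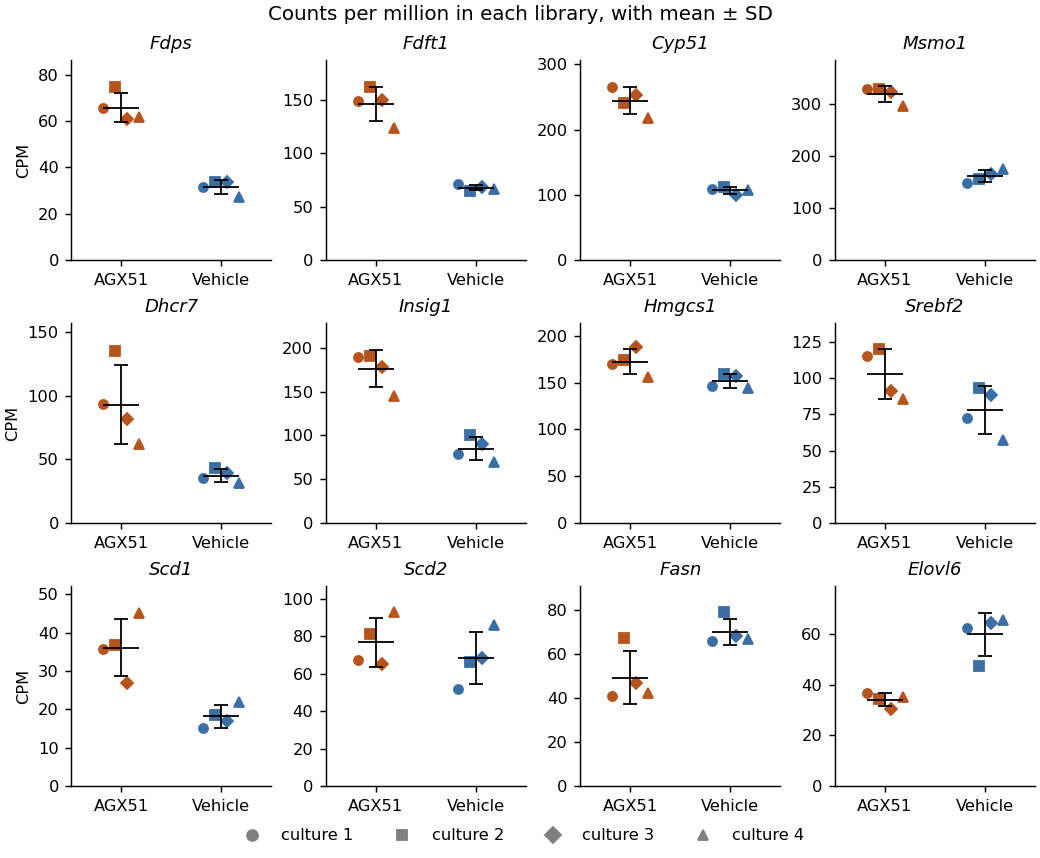
CPM of 12 of the genes in each of the 4 AGX51 (orange) and 4 Vehicle (blue) libraries, with marker shapes for the culture and bars for the mean ± SD. The groups are apart for *Fdps*, *Fdft1*, *Cyp51*, *Msmo1*, *Dhcr7*, *Insig1*, *Scd1* (AGX51 above) and *Elovl6* (AGX51 below), and overlap for *Hmgcs1*, *Srebf2*, *Scd2* and *Fasn*.

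Among the genes that sense and carry sterols, *Insig1*, which retains the SCAP and SREBP complex and is itself an SREBP target, was at 189.9, 190.1, 178 and 145 CPM in AGX51 and 78.6, 101, 90.0 and 69.8 CPM in Vehicle. The groups were well apart, with culture 4 the lowest in both, for a log2 fold change of 1.13 ± 0.11 (edgeR adjusted p = 1.29e-05). *Stard4*, a sterol transfer protein gene, was at 204, 219, 170.1 and 151 CPM in AGX51 and 94.0, 94.1, 111 and 81.1 CPM in Vehicle. It was higher with AGX51 by 0.84 to 1.20 on the log2 scale within cultures, and the fitted log2 fold change was 1.04 ± 0.11 (edgeR adjusted p = 1.73e-05). *Srebf2*, which encodes SREBP-2, was at 115, 119.9, 90.8 and 85.6 CPM in AGX51 and 72.4, 93.3, 88.5 and 57.0 CPM in Vehicle. It was higher with AGX51 in every culture, but AGX51 cultures 3 and 4 lay inside the Vehicle range, and the log2 fold change of 0.47 ± 0.13 was under the fold threshold (edgeR adjusted p = 0.0149), at which it was just called without Vehicle culture 2 (0.59). *Srebf1*, which encodes SREBP-1, was at 42.9, 43.2, 26.1 and 27.7 CPM in AGX51 and 29.4, 39.1, 38.7 and 29.0 CPM in Vehicle. It was higher with AGX51 in culture 1 and lower in culture 3, for a log2 fold change of 0.09 ± 0.15 (edgeR adjusted p = 0.680). The log2 ratio of *Srebf2* to *Srebf1* within a library, a pair chosen after its values were seen, was 1.42 to 1.80 in AGX51 and 0.97 to 1.30 in Vehicle.

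A list of other sterol synthesis, uptake and SREBP processing genes had 13 tested. Of these, 5 were called higher and 0 lower by edgeR, where 8.41% and 9.86% of all tested genes were. DESeq2 and limma-voom also called 0 lower, and the median of the list was 0.58 on the log2 scale. By the adjusted p alone 1 gene was lower, *Acat1*, at -0.31 ± 0.08 (edgeR adjusted p = 0.00986), with AGX51 below Vehicle in 4 of 4 cultures. Among the 5 called higher were the lysosomal cholesterol exporters *Npc1*, at a log2 fold change of 0.72 ± 0.18, and *Npc2*, at 0.68 ± 0.18 (edgeR adjusted p = 0.00899 and 0.0115). *Npc2* was highest in AGX51 culture 4, at 883 CPM, and without that library 3 genes of the list were called. With culture as a block 6 were called, *Insig2*, the second INSIG gene, being the added one (log2 fold change 0.58, edgeR adjusted p = 0.00199 without and 9.97e-08 with the block). *Scap*, *Mbtps1* and *Mbtps2*, whose products carry and cut SREBPs, had log2 fold changes of 0.11, -0.11 and -0.02 and were not called. Of 10 tested genes of sterol efflux, esterification and the LXR response, which opposes cholesterol accumulation, 1 was higher and 1 lower. Both counts lie near the shares of all tested genes, 8.41% and 9.86%, and the median was -0.01 on the log2 scale. The higher one was *Ch25h*, which hydroxylates cholesterol, at 4.26, 2.79, 5.38 and 5.09 CPM in AGX51 and 1.10, 1.08, 1.11 and 2.19 CPM in Vehicle (log2 fold change 1.77 ± 0.34, edgeR adjusted p = 0.00128). The lower one was *Mylip*, an LXR target that encodes a ubiquitin ligase, at 2.05, 3.72, 3.76 and 2.13 CPM in AGX51 and 4.38, 6.48, 5.56 and 6.15 CPM in Vehicle (log2 fold change -0.89 ± 0.27, edgeR adjusted p = 0.0206). *Soat1*, which esterifies cholesterol, was under the fold threshold at 0.36 ± 0.11 (edgeR adjusted p = 0.0223).

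In fatty acid synthesis, 1 of 2 genes for enzymes that supply cytosolic acetyl-CoA was called higher. *Acly*, ATP citrate lyase (chromosome 11, 100476353 to 100528000), was at 149, 152, 119 and 120.5 CPM in AGX51 and 97.9, 87.9, 80.8 and 79.7 CPM in Vehicle. The groups did not overlap, for a log2 fold change of 0.71 ± 0.10 (edgeR adjusted p = 0.000171). *Acss2*, which makes acetyl-CoA from acetate, was at 24.3–26.2 CPM in AGX51, inside its Vehicle range of 21.9–31.3 CPM, with a log2 fold change of 0.04 ± 0.14 (edgeR adjusted p = 0.849). *Me1*, malic enzyme, a source of NADPH, was at 27.1–33.6 CPM in AGX51 and 24.0–28.1 CPM in Vehicle (0.29 ± 0.13, edgeR adjusted p = 0.109). The enzymes of chain synthesis themselves were not called. *Acaca*, acetyl-CoA carboxylase, was at 39.1, 57.4, 34.7 and 36.0 CPM in AGX51 and 28.9, 39.9, 31.0 and 32.3 CPM in Vehicle, with AGX51 culture 2 far above the rest and a log2 fold change of 0.39 ± 0.14 (edgeR adjusted p = 0.0499). *Fasn*, fatty acid synthase (chromosome 11, 120805846 to 120824547), was at 40.8, 66.9, 46.6 and 42.4 CPM in AGX51, against 65.6, 78.7, 67.9 and 66.9 CPM in Vehicle. AGX51 was below Vehicle in every culture, but AGX51 culture 2 overlapped the Vehicle range. The log2 fold change of -0.45 ± 0.13 passed the adjusted p (edgeR, 0.0175) and not the fold threshold.

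**Figure D3:**
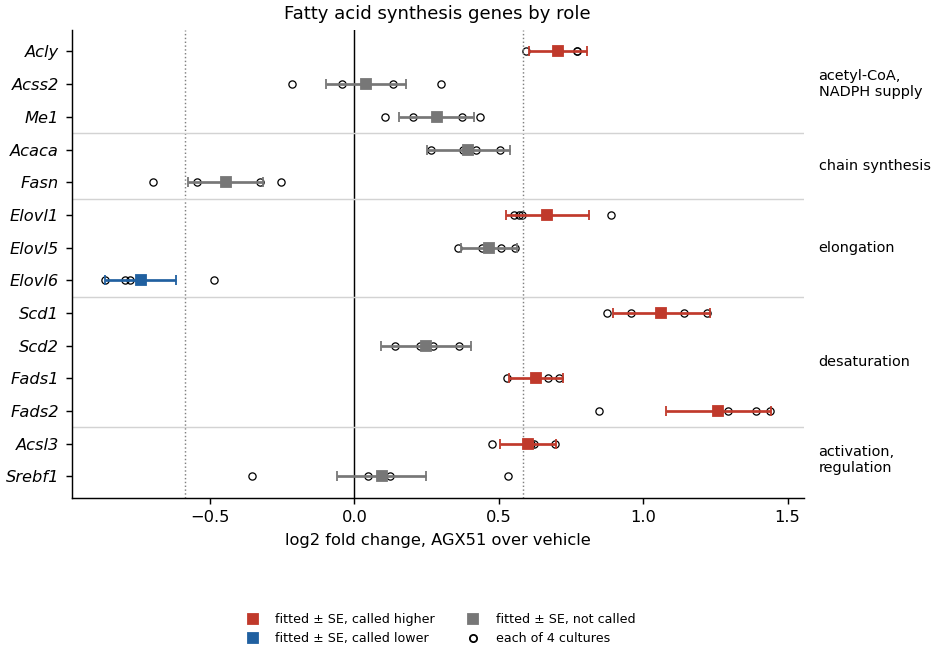
Log2 fold change of AGX51 over Vehicle for the 14 fatty acid genes by role, with squares and bars for the edgeR estimate ± SE and open circles for the difference within each of the 4 cultures. Dotted lines mark a fold change of 1.5, with 6 genes called higher (red), from *Acsl3* at 0.60 to *Fads2* at 1.26, and *Elovl6* called lower (blue) at -0.74.

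Of the 3 elongase genes, 1 was called higher and 1 lower. *Elovl1*, which lengthens very long saturated chains, was at 68.6, 86.2, 69.2 and 104 CPM in AGX51 and 45.4, 57.3, 54.8 and 60.6 CPM in Vehicle. AGX51 culture 4 was the highest, and all AGX51 libraries were above Vehicle, for a log2 fold change of 0.67 ± 0.14 (edgeR adjusted p = 0.00344). Without AGX51 culture 4 it was at 0.50 and not called. *Elovl5*, which lengthens polyunsaturated chains, was at 119, 135, 113 and 96.9 CPM in AGX51 and 91.9, 93.5, 88.8 and 77.0 CPM in Vehicle, apart but under the fold threshold at 0.47 ± 0.10 (edgeR adjusted p = 0.00255). *Elovl6*, which lengthens palmitate, the product of *Fasn* (chromosome 3, 129532355 to 129638495), was at 36.7, 34.2, 30.4 and 34.9 CPM in AGX51, against 62.3, 47.2, 64.2 and 65.5 CPM in Vehicle. The AGX51 libraries lay close together below all Vehicle libraries, of which culture 2 was the lowest. It fell, with a log2 fold change of -0.74 ± 0.12 (edgeR adjusted p = 0.000522). The log2 ratio of *Elovl1* to *Elovl6* within a library, a pair chosen after its values were seen, was 0.90 to 1.57 in AGX51 and -0.46 to 0.28 in Vehicle.

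Desaturases rose, apart from *Scd2*. *Scd1* and *Scd2* encode stearoyl-CoA desaturases, which make oleate, and lie 87590 bases apart on chromosome 19, *Scd1* from 44394455 to 44407879 and *Scd2* from 44293674 to 44306864. *Scd1* was at 35.6, 36.7, 26.9 and 45.0 CPM in AGX51 and 15.1, 18.6, 17.0 and 22.0 CPM in Vehicle. The groups were apart, with culture 4 highest in both, for a log2 fold change of 1.06 ± 0.17 (edgeR adjusted p = 0.000359). *Scd2* was at 67.5, 81.1, 65.2 and 93.1 CPM in AGX51 and 51.9, 66.3, 68.6 and 85.9 CPM in Vehicle, with overlapping groups and a log2 fold change of 0.25 ± 0.16 (edgeR adjusted p = 0.251). With culture as a block *Scd2* had an adjusted p of 0.00907 (edgeR), with the fold under the threshold. The log2 ratio of *Scd1* to *Scd2* within a library was -1.28 to -0.92 in AGX51 and -2.01 to -1.78 in Vehicle, again a pair chosen after its values were seen.

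*Fads1* and *Fads2*, the desaturases of polyunsaturated fatty acids, are likewise neighbours on chromosome 19, 81141 bases apart, from 10182888 to 10196877 and from 10062765 to 10101746. *Fads1* was at 73.0, 82.0, 71.8 and 69.9 CPM in AGX51 and 44.3, 52.6, 52.3 and 52.4 CPM in Vehicle. The groups were apart and the log2 fold change was 0.63 ± 0.09 (edgeR adjusted p = 0.000231), near the fold threshold, and without Vehicle culture 1 it was at 0.58 and not called. *Fads2* was at 14.5, 13.2, 9.00 and 11.7 CPM in AGX51 and 5.26, 5.28, 5.78 and 4.80 CPM in Vehicle. Its Vehicle libraries were nearly equal and every AGX51 library was above them, for a log2 fold change of 1.26 ± 0.18 (edgeR adjusted p = 0.000174). Among the 14 fatty acid genes, *Scd1* and *Fads2* alone were above the 95th percentile of tested genes. *Acsl3*, which activates fatty acids at the endoplasmic reticulum and lipid droplets, was at 82.9, 94.3, 75.4 and 68.4 CPM in AGX51 and 53.8, 60.4, 54.0 and 53.1 CPM in Vehicle. The groups were apart and its log2 fold change of 0.60 ± 0.10 was just over the threshold (edgeR adjusted p = 0.000399), under which it fell without AGX51 culture 2 (0.57).

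A further list of fatty acid synthesis, elongation and activation genes had 22 tested and a median log2 fold change of 0.14. Of these genes 5 were higher and 1 was lower, where 8.41% and 9.86% of all tested genes were. The higher ones included *Mid1ip1*, whose product promotes assembly of acetyl-CoA carboxylase, at 1.11 ± 0.18, and the mitochondrial citrate carrier gene *Slc25a1* at 0.80 ± 0.12 (edgeR adjusted p = 0.000465 and 0.000302). *Fads3* was higher at 0.73 ± 0.21 and *Mlxipl*, which encodes the glucose-responsive factor ChREBP, at 0.66 ± 0.19 (edgeR adjusted p = 0.0191 and 0.0185). The elongase gene *Elovl3* was higher at 1.19 ± 0.39 (edgeR adjusted p = 0.0318). It had few reads, at 1.21–3.25 CPM in AGX51 and 0.48–1.46 CPM in Vehicle. The groups overlapped for *Elovl3*, *Fads3* and *Mlxipl*. *Slc25a1*, which exports the citrate that *Acly* cleaves, was at 96.8, 116, 76.3 and 119 CPM in AGX51 and 55.2, 67.7, 62.0 and 61.3 CPM in Vehicle. *Mcat*, of mitochondrial fatty acid synthesis, was lower at -0.71 ± 0.17 (edgeR adjusted p = 0.00653). With culture as a block, 6 of this list were higher and 2 lower, and without single libraries 2 to 5 were higher. Of 11 tested glycerolipid genes, with a median of 0.32, 3 were higher and 1 lower, the lower count near the share of all tested genes. *Lpin1*, a phosphatidate phosphatase gene, was at 56.4, 69.0, 52.1 and 49.0 CPM in AGX51 and 22.6, 32.7, 28.6 and 26.6 CPM in Vehicle, for a log2 fold change of 1.10 ± 0.12 (edgeR adjusted p = 2.71e-05). The lipid droplet coat gene *Plin2* was higher at 0.73 ± 0.14 and *Agpat3* at 0.69 ± 0.22, and *Dgat1*, of the last step to triglyceride, was lower at -0.71 ± 0.17 (edgeR adjusted p = 0.00188, 0.0285 and 0.00649). *Agpat5* was under the fold threshold at 0.53 ± 0.10 (edgeR adjusted p = 0.00161). Of 18 tested genes of fatty acid oxidation, 1 was higher (*Acadl*, 0.59 ± 0.16) and 1 lower (*Acads*, -0.60 ± 0.19), with a median of 0.01. Both counts lie below the shares of all tested genes. With culture as a block neither gene passed the fold threshold (edgeR adjusted p = 0.0154 and 0.0276 without and 2.09e-06 and 0.00651 with the block). *Acadm* and *Hadha* had log2 fold changes of -0.48 and 0.41 with edgeR adjusted p = 0.00282 and 0.00843, both under the fold threshold.

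**Figure D4:**
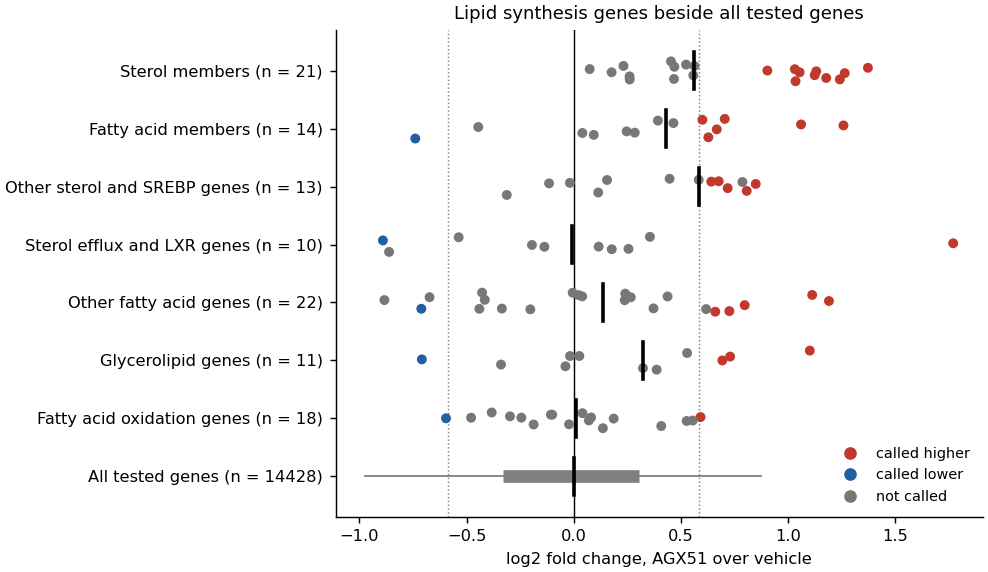
Log2 fold change of AGX51 over Vehicle for each tested gene of the 21 sterol and 14 fatty acid genes, the 5 further lipid lists and all 14428 tested genes, with a thick bar for each median. For all tested genes the box spans the 25th to 75th percentile (-0.33 to 0.30) and the line the 5th to 95th (-0.97 to 0.87), while list medians run from -0.01 to 0.58 and colors give the call.

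Calls were compared with the fibroblast signal and with the cultures. With the mean log2 CPM of the fibroblast markers as a covariate, 12 sterol genes were called higher and 0 lower, and their median log2 fold change was 0.70. The 9 sterol genes *Pmvk*, *Mvd*, *Fdps*, *Fdft1*, *Cyp51*, *Msmo1*, *Dhcr7*, *Insig1* and *Stard4* were called in that fit, with log2 fold changes of 1.01 to 1.66. *Sqle*, *Lss* and *Srebf2* were added, at 0.73, 0.63 and 0.70, and *Tm7sf2* was at 0.60 and no longer called (edgeR adjusted p = 0.229). Of the 21 estimates 14 were larger with the covariate. The others were smaller, and among them *Mvk* was at 0.29, *Sc5d* at 0.21, *Ebp* at -0.01 and *Hsd17b7* at -0.04. The fatty acid genes also went both ways. *Elovl1* was at 0.30 and *Fads1* at 0.57, neither of them called, *Scd1* was at 0.73 and still called, and *Scd2* was at -0.14. *Elovl5* was called, at 0.62, *Acly* was at 0.84 and still called, and *Elovl6* was at -0.82 and still called lower. Without either library of culture 4, in which fibroblast markers were highest within each group, 10 sterol and 5 fatty acid genes were higher and 1 fatty acid gene was lower. Within AGX51, culture 4 gave the lowest value for 8 of the 10 sterol genes called higher, and culture 2, the library with the fewest counts, gave the highest value for 8 of them. The part of cell composition or depth in that spread was not tested. With culture as a block, the same counts of called genes were found, 10 and 0 among sterol genes and 6 and 1 among fatty acid genes.

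Of the 17 called genes, 7 share exon bases with another gene in the annotation, and whether counting used strand is not stated. For *Fdft1* the neighbour on the opposite strand, *Ctsb*, was also called higher, at 0.63 against 1.18 for *Fdft1* (log2 fold changes). The neighbours *Akap9* of *Cyp51* (-0.24), *Vps51* of *Tm7sf2* (0.10), *Cdc20* of *Elovl1* (0.13), *Gm35986* of *Elovl6* (0.01) and *Utp14b* of *Acsl3* (0.36) were not called, and *Gm43738*, which overlaps *Fdps*, had too few counts to be tested.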

How the data were processed

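RNA-seq libraries of 4 AGX51-treated and 4 vehicle-treated Aundiff cultures were analyzed from a table of 17167 genes. Raw count values per gene were made by the authors with the RNAsik pipeline on GRCm38, and the submitters' notes also name STAR, Salmon, featureCounts, edgeR and limma, without versions. The CPM values deposited by the authors equal the counts scaled to each library's total (within 5e-04). The authors' comparison columns (log2 fold change, average expression, FDR and p-value) were not used. Strand use in counting is not stated in the sources used here.

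Counts were filtered with filterByExpr (minimum count 10, minimum total 15) and scaled by TMM, and AGX51 was compared with Vehicle by edgeR 4.0.16 (quasi-likelihood test, robust; R 4.3.3), with Benjamini-Hochberg adjustment over 14428 genes. CPM here are counts per library total. Log2 CPM used TMM scaling and a prior count of 0.5. Equally numbered libraries come from the same culture by their labels and correlated at 0.107 to 0.415 after removal of group means (others -0.261 to 0.0799), so culture was also fitted as a block. Where the blocked fit changed a call or moved a count by over 1.5 times, its value stands beside the result. No 2 libraries of a group were alike within counting noise, with a chi-square of 5.75 to 17.8 for each degree of freedom.

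Every one of the 35 genes is described, with, of each further list, the 3 genes of smallest adjusted p and all called genes, and the 3 most abundant fibroblast and germ cell markers. Some genes of the further lists that this rule names are counted but not reported here. Members and lists were chosen with earlier results of these data known. The counts of called markers that follow stand against 8.41% higher and 9.86% lower over all tested genes. Other cell markers gave, as higher and lower among those tested, 0 and 0 of 3 for Sertoli (edgeR; 0 and 0 at an unadjusted p under 0.05), 1 and 0 of 1 for Leydig (*Star*), 1 and 0 of 5 for peritubular myoid, 1 and 1 of 3 for macrophage, 0 and 1 of 3 for endothelial and 1 and 0 of 3 for adipocyte. The alternatives tried were scaling by RLE, by upper quartile or by totals, other filters on low counts, limma-voom (limma 3.58.1), DESeq2 1.42.0, the block, other fold rules, equal depth, the fibroblast marker mean as a covariate, each library or culture 4 left out and, chosen after seeing the data, edgeR without its robust prior. The test was checked on simulated data. Coordinates are from GENCODE M21 (GRCm38), which gives all 35 genes, and promoters from RefSeq (GRCm38.p6).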

Additional observations from a re-analysis of the deposited data

Results flagged for a closer look

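In 4 of 70 groups of 4 libraries (35 genes in 2 groups each), 1 library stood far from the other 3 by Dixon's test at 95%, which chance alone does in about 1 of 20 groups. *Msmo1* was at 296.2 CPM in AGX51 culture 4, against 323 to 328 CPM in the other AGX51 libraries. *Mvk* was at 14.02 CPM in Vehicle culture 1, against 19.1 to 19.8 CPM in the other Vehicle libraries, and *Fads1* was at 44.3 CPM in the same library, against 52.4 to 52.6 CPM in the others. *Acsl3* was at 60.4 CPM in Vehicle culture 2, against 53.1 to 54.0 CPM in the others.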

How the results depend on the processing

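Of the 17 called genes, 11 (*Pmvk*, *Mvd*, *Fdps*, *Fdft1*, *Cyp51*, *Msmo1*, *Dhcr7*, *Insig1*, *Stard4*, *Scd1* and *Fads2*) kept their call in all 22 alternatives. *Acly* and *Elovl6* lost it only at a fold above 2, *Tm7sf2* in 8 settings, *Fads1* in 5, and *Elovl1* and *Acsl3* in 4 each. Over all genes, 2191 were higher and 2222 lower with no fold minimum, and 479 and 622 with a fold above 2. With no fold minimum 16 sterol genes were higher and 2 fatty acid genes lower, and with a fold above 2, 2 fatty acid genes were higher and 0 lower. The fatty acid median was 0.38 with upper quartile scaling, 0.36 with library totals, 0.52 at equal depth and 0.36 with the fibroblast covariate, and the sterol median was 0.70 with that covariate. Leaving out single libraries gave a sterol median of 0.56 to 0.69, 9 to 12 sterol genes higher, a fatty acid median of 0.38 to 0.51, 5 to 6 fatty acid genes higher and 1 lower, and over all genes 1045 to 1277 higher and 1166 to 1408 lower. With culture as a block, 1399 genes were higher and 1648 lower, and no call among the 35 genes changed. No called gene reversed its direction. Of genes not called, *Nsdhl*, *Hsd17b7*, *Ebp*, *Scd2* and *Acss2* changed sign in at least 1 setting. Over all alternatives the further lists had 0 to 7 (sterol uptake), 1 to 2 (efflux), 2 to 6 (fatty acid), 1 to 5 (glycerolipid) and 0 to 4 (oxidation) genes higher and 0 to 1, 0 to 2, 0 to 3, 0 to 2 and 0 to 4 lower. Where a setting moved a value, the cause was not tested. Values at about 5 CPM or below rest on few counts, as for *Tm7sf2*, *Idi1* and *Elovl3*, and for *Fads2* in Vehicle.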
